A study of Mus musculus with 5 samples.

Results

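The genes described here are 37 liver-made plasma proteins and their regulators, 17 of complement and 20 of coagulation, picked by name from the 33589 rows of a mouse liver RNA-seq table. All 37 had a row of their own, and 36 had a mean of at least 1 FPKM (a unit that corrects fragment numbers for the length of the transcript and the size of the library) and entered the test over 10820 genes, the exception being Cfd. The study compared 3 livers labelled Lyve1-Cre;Hegfl/fl, called knockouts, with 2 livers labelled Hegfl/fl, called controls. Both genotypes carried the floxed Heg1 gene, and the control label names no Cre. All livers came from male mice that were 6 weeks old at the start of a high-fat diet lasting 4 weeks. Lyve1-Cre is driven by a gene of lymphatic endothelium and of the sinusoidal endothelium of the liver, whereas hepatocytes make most of the proteins described here. The series title speaks of hepatocytes while the tissue label is liver. In whole liver, fewer cells of a type and less RNA per cell cannot be told apart.

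Complement is a cascade of plasma proteases that marks targets with fragments of C4 and C3 and ends in a pore, the membrane attack complex, built from C5 to C9. Coagulation is a second cascade, in which contact factors or factor VII start a chain of proteases that ends with thrombin cutting fibrinogen into fibrin. Hepatocytes make most of these proteins, several of them more strongly in the acute phase response, whereas coagulation factor VIII is made by liver sinusoidal endothelial cells and adipsin (Cfd) mainly by fat cells.

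Summed FPKM were between 797692 and 820498 per library, and sequencing depth is unknown because whole reads could not be recovered from the values. Heg1 had 0.45, 0.43 and 0.50 FPKM in the knockout livers and 0.48 and 0.35 FPKM in the control livers, so the whole-gene value did not separate the genotypes. The sources used here do not say which exons were floxed, so this value checks neither label. Lyve1 itself had 3.90, 7.32 and 10.5 FPKM in knockouts and 7.34 and 8.92 FPKM in controls. Hepatocyte markers were abundant in every liver, with Alb between 37676 and 51017 FPKM. Hemoglobin genes stood apart in 1 library, knockout 1, as shown by Hba-a2 with 515, 67.1 and 30.7 FPKM in knockouts and 34.0 and 29.1 FPKM in controls.

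The 37 genes spanned a wide range of levels, which can be compared between genes because FPKM are scaled by length. Antithrombin (Serpinc1), the main inhibitor of thrombin, was the most abundant with a mean of 2495 FPKM over the 5 livers. It was followed by the fibrinogen chains Fga and Fgg, at 2110 and 2001 FPKM, whose livers overlapped, and by C3, the central complement protein, at 1342 FPKM. At the lower end of the tested genes stood the lectin pathway protease Masp1 at 38.0 FPKM, protein S (Pros1) at 20.1 FPKM and F8 at 2.82 FPKM. Together the 37 genes made up 2.25%, 2.48% and 2.24% of all FPKM in the knockout livers and 2.24% and 2.11% in the control livers. Complement members summed to 5478, 5611 and 5232 FPKM in knockouts, against 5272 and 5115 FPKM in controls. Coagulation members summed to 12953, 14161 and 12861 FPKM in knockouts, against 12942 and 12104 FPKM in controls, with control 2 lowest and knockout 2 highest in both cascades.

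**Figure D1:**
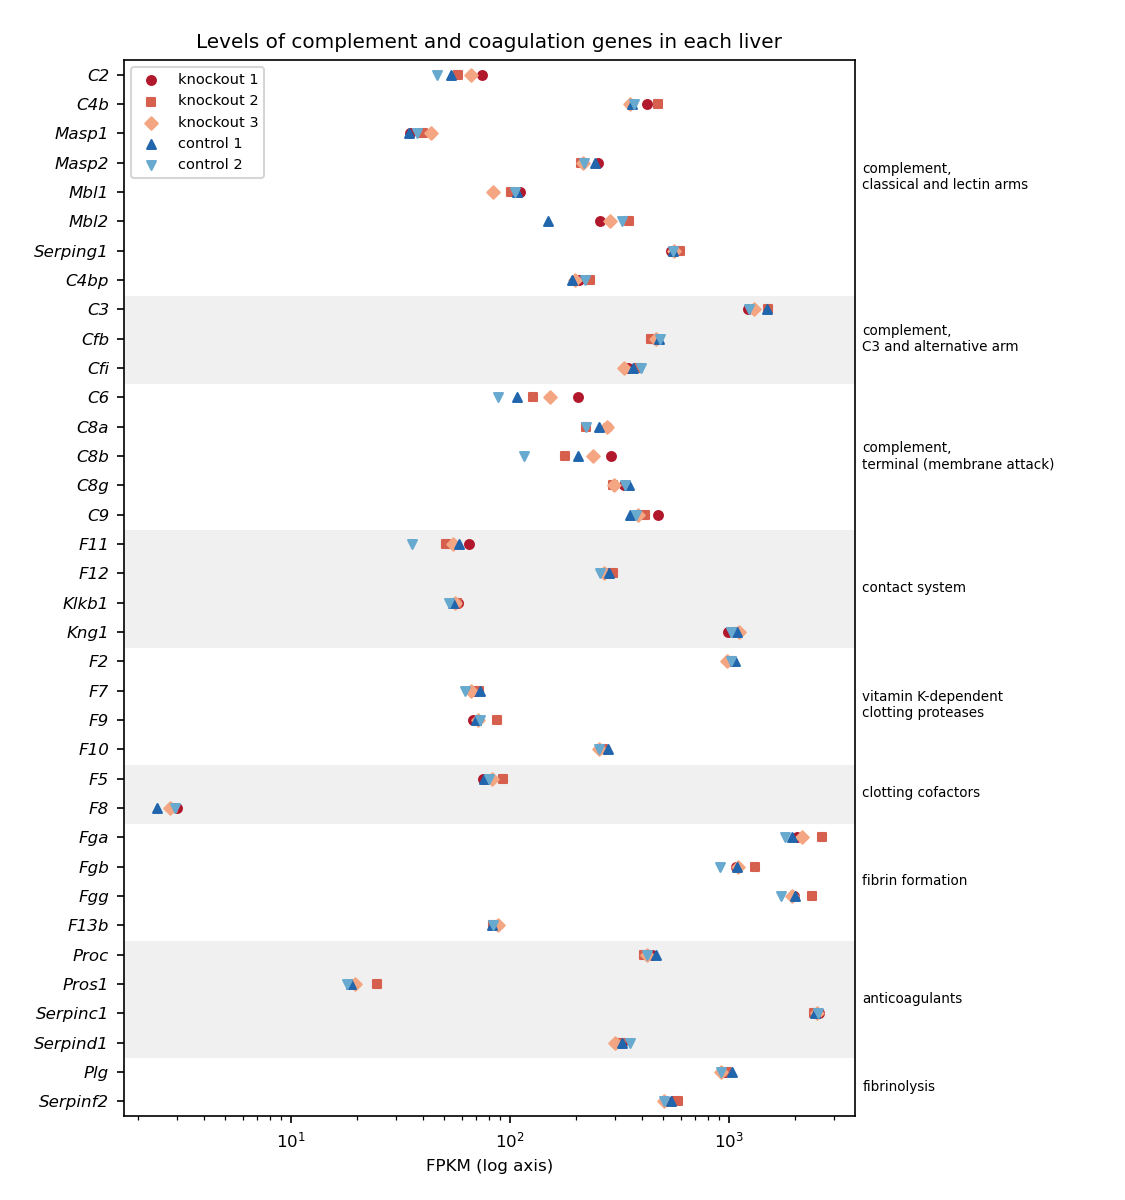
FPKM of the 36 tested genes (log axis), 1 point per liver, with the 3 knockout livers in red shades and the 2 control livers in blue shades, grouped by role. Most rows form a tight cluster, whereas C6, C8b, Mbl2 and F11 spread over 1.82 to 2.48 times between the lowest and the highest liver; Cfd, listed at 0 in 2 livers, is left out.

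Most members were steady from liver to liver. The highest liver was over 1.5 times the lowest for 5 of 36 members, which were C8b (2.48), Mbl2 (2.32), C6 (2.30), F11 (1.82) and C2 (1.60). Across the 36, the median of this ratio was 1.22, against 1.38 over all tested genes and 1.24 over the 1442 genes with a mean of at least 50 FPKM. The steadiest were Serpinc1 and F13b, both at 1.06. Control 2 was the lowest liver for 13 of the 36 members (36.1%), against 23.0% of all tested genes, and knockout 2 the highest for 13 (36.1%), against 22.2% of all tested genes.

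The comparison of genotypes asks how these genes differ, on a high-fat diet, between livers with and without the Lyve1-driven Cre. With limma and Benjamini-Hochberg adjustment over all genes, 0 of 36 members passed at 0.05, as for 0 of all 10820 genes (0%), and the smallest adjusted p of a member was 0.7. At an unadjusted p below 0.05, 2 members were higher in knockouts, C6 and C2, which is 5.56% of members against 5.29% of all genes. No member was lower at that level, against 1.71% of all genes. The count of higher members was 1 without knockout 1 (2.78%, against 5.29% of all genes) and 3 without knockout 2 (8.33%, against 4.51%). It was 2 without knockout 3 (5.56%, against 4.21%). Fits without a control rest on 1 control liver, and their counts at this level are not given. The FPKM of the genotypes did not overlap, with the knockouts higher, for 7 members (19.4%) against 18.9% of all genes, and with the knockouts lower for 3 members (8.33%) against 6.38% of all genes. The higher ones were C6, C2, Fga, C9, Pros1, Klkb1 and F13b, and the lower ones C8g, Serpind1 and Cfb. These shares of the members were near those of all genes. The median log2 fold change, knockout minus control, was 0.066 over the members and 0.061 over all genes. Of the 36 members 25 were higher in knockouts (69.4%), as were 64.2% of all genes.

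The lean towards higher values in knockouts was lost under 1 of 3 other scalings. With quantile normalization 24 of the 36 members were higher (median 0.068, against -0.0021 over all genes), and with totals that omit the 10 most abundant genes 23 were (median 0.056, against 0.052). After median-of-ratios scaling 16 of the 36 members were higher and the median was -0.012. The genotypes then did not overlap for 2 higher members, C6 and C2, and for 6 lower members, namely C8g, Serpind1, Serpinc1, F2, Cfi and Cfb. These are 5.56% and 16.7% of members, against 1185 of 10812 genes higher and 1417 lower (13.1%) without overlap on that scale. With quantile normalization 7 members were higher (19.4%, against 10.9% of all genes) and 1 lower (2.78%, against 11.5%) without overlap. With median-of-ratios scaling, 273 of all genes were higher and 393 lower at an unadjusted limma p below 0.05, against 572 and 185 without rescaling. Of the members 1 was higher at that level (2.78%, against 2.52% of all genes) and 0 lower (against 3.63%). With quantile normalization 3 members were higher (8.33%, against 2.58%) and 0 lower (against 2.97%). With totals that omit the 10 most abundant genes 2 were higher (5.56%, against 4.38%) and 0 lower (against 1.82%). The median over all genes was -0.0073 with median-of-ratios scaling. Terminal complement kept 4 of 5 genes higher and C3 with the alternative arm 3 of 3 lower under each of 3 other scalings. With median-of-ratios scaling the classical and lectin arms had 4 of 8 higher, the contact system 2 of 4, the fibrin genes 3 of 4, and the anticoagulants 1 of 4, while all 4 vitamin K-dependent proteases were lower. The standard error of a member's log2 fold change was between 0.085 and 0.31, with a median of 0.11.

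**Figure D2:**
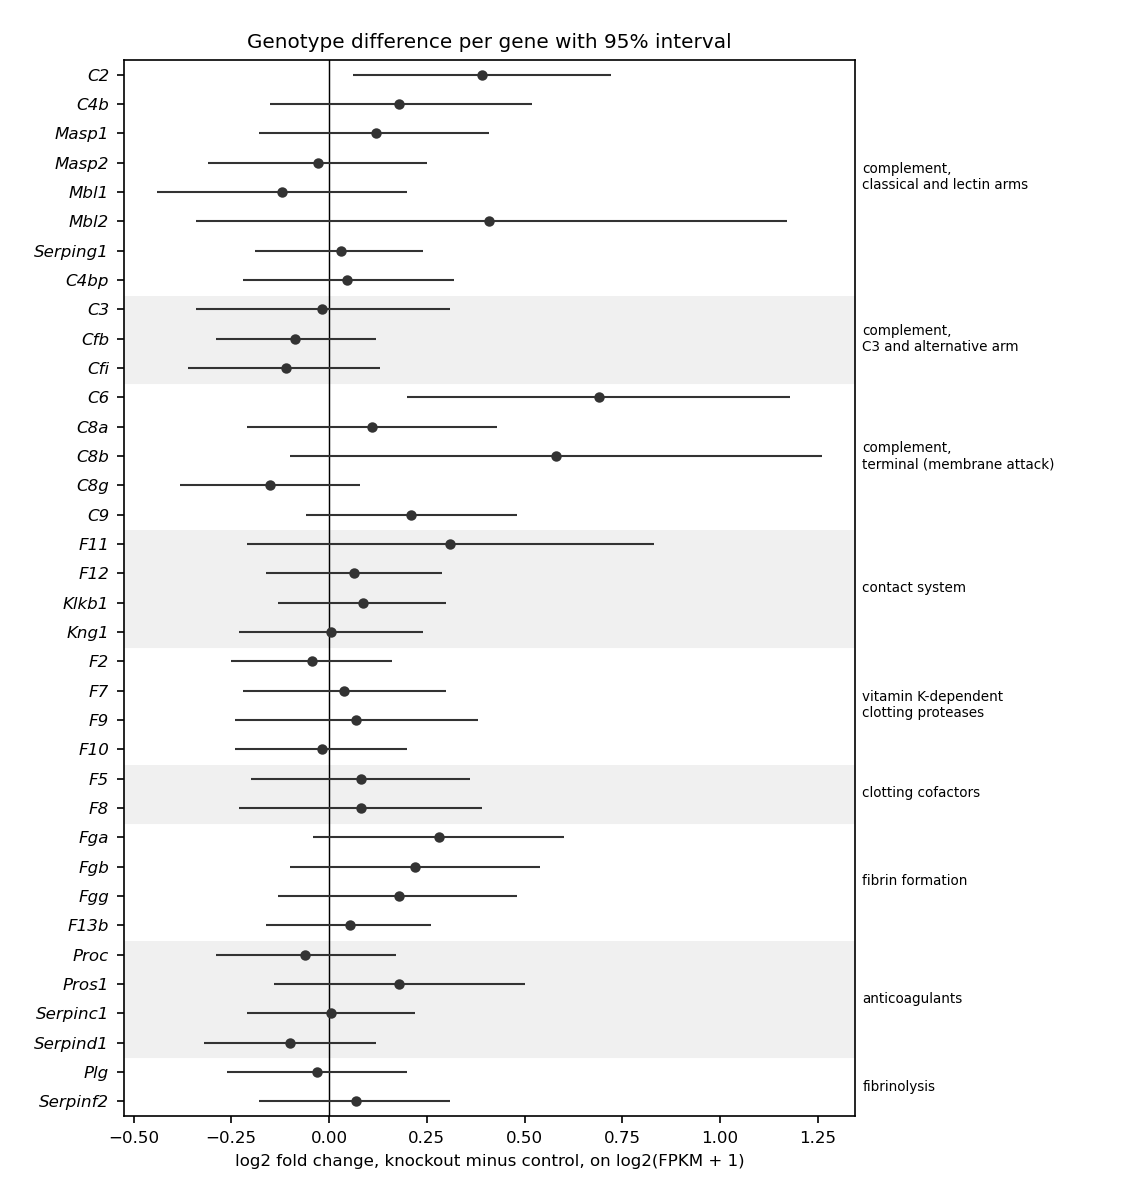
Log2 fold change of each tested gene, knockout minus control, on log2(FPKM + 1), with its 95% interval from limma over 3 knockout and 2 control livers. The intervals of C6 and C2 lie above 0, those of the other 34 genes include 0, and none of the 36 passed the adjustment over all genes.

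Of the 5 terminal complement genes 4 were higher and 1 was lower in knockouts (median log2 fold change 0.21), with 0 passing the limma test over all genes. C6, the first of the components that the C5b fragment recruits and a gene known for male-biased expression in mouse liver, gave the largest difference of the 36. It had 203, 127 and 152 FPKM in the knockout livers and 107 and 88.1 FPKM in the control livers. Every knockout lay above both controls, knockout 1 furthest. The log2 fold change of C6 was 0.69 (SE 0.20, 95% interval 0.20 to 1.18, limma adjusted p = 0.7), and it lay between 0.51, without knockout 1, and 0.85, without knockout 2, when 1 liver was left out. Knockout 1 was also the liver with high hemoglobin genes, whose part in the C6 value was not tested beyond leaving that liver out. C6 lies on chromosome 15 at 4727175 to 4814967 (plus strand, mm10).

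C8 is a protein of 3 chains, and their genes ordered the livers differently. C8b, which encodes the beta chain, had 287.02, 177.80 and 238.14 FPKM in knockouts, against 203.69 and 115.87 FPKM in controls, so the genotypes overlapped and control 2 was lowest. Its log2 fold change was 0.58 (SE 0.28, limma adjusted p = 0.718), but 0.17 without control 2 and 0.98 without control 1, and it was singled out after its values were seen, as was Mbl2 below. C8a, the alpha chain and a neighbour of C8b 11.1 kb away on chromosome 4, had 278, 221 and 276 FPKM in knockouts and 254 and 223 FPKM in controls, with full overlap. C8g, the gamma chain, a lipocalin encoded on chromosome 2, had 331, 294 and 297 FPKM in knockouts, all below the 347 and 335 FPKM of controls. The log2 fold change of C8g was -0.15 (SE 0.10, limma adjusted p = 0.769). Fbxw5, at a mean of 25.4 FPKM, overlaps C8g on the other strand, and their reads cannot be told apart unless strand was used in counting.

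The ratio of C8b to C8a within a liver was 1.03, 0.806 and 0.863 in knockouts and 0.803 and 0.520 in controls, so it was lowest in control 2 and nearly equal in knockout 2 and control 1. C8b over C8g was 0.866, 0.606 and 0.801 in knockouts, against 0.588 and 0.346 in controls. C9, whose many copies form the wall of the pore, had 470, 411 and 385 FPKM in knockouts, all above the 352 and 376 FPKM of controls. C9 thus gave a log2 fold change of 0.21 (SE 0.11, limma adjusted p = 0.731), and of 0.13 without knockout 1.

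The 250 bases before the RefSeq start of C6 and of the C8 neighbours are shown because C6 and C8b were the terminal genes that differed most between livers while C8a, next to C8b, differed less. Capitals mark matches, on either strand, to TTGCNNAA (C/EBP), CAAAGTCCA (HNF4) and TTCNNNGAA (STAT factors). The windows are chr15:4726960-4727209 (plus strand) for C6, chr4:104876399-104876648 (minus strand) for C8a and chr4:104766067-104766316 (plus strand) for C8b, on GRCm38.p6, 5′ to 3′.
C6: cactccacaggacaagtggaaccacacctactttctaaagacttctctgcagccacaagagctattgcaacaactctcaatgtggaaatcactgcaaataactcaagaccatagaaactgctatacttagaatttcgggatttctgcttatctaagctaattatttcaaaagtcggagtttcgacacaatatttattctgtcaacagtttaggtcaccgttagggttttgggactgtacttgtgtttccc
C8a: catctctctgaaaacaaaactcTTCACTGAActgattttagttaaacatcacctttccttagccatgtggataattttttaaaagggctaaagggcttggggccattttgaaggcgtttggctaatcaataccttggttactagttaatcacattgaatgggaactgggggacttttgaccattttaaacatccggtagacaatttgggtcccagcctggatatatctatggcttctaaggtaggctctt
C8b: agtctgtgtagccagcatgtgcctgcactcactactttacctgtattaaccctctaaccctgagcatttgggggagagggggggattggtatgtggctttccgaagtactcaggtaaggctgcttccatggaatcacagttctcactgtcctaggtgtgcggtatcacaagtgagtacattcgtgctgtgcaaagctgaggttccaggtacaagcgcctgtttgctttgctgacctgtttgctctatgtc
C8a held 1 STAT match, at -228 to -220 from the start (the base just before it being -1), and C6 and C8b held no match to any of the 3. No 2 matches to different motifs overlapped. Among 32851 RefSeq windows of 250 bases, 9.56% held the C/EBP, 0.384% the HNF4 and 7.02% the STAT motif. Of the 29 windows available for 28 of the 37 members, 7, 0 and 6 held these motifs in the same order. A match is only a run of letters and was not tied to a factor or to the differences between livers.

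**Figure D3:**
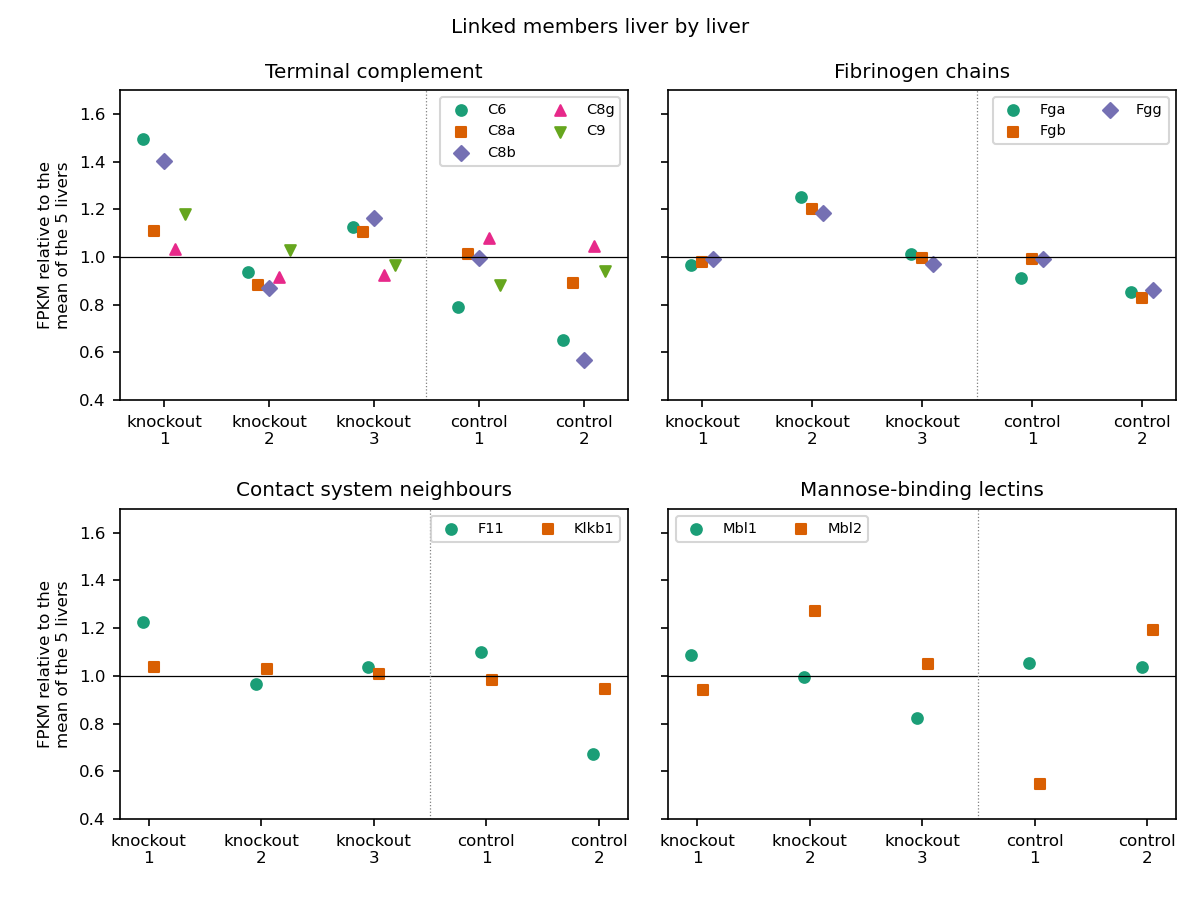
FPKM divided by the 5-liver mean for genes whose products work together or which are neighbours, in 3 knockout and 2 control livers (dotted line between them). C6 and C8b are lowest in control 2 and C8g is not, the 3 fibrinogen chains are highest in knockout 2 and lowest in control 2, F11 is far lower in control 2 than Klkb1, and Mbl2 but not Mbl1 is lowest in control 1.

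In the classical and lectin arms 6 of 8 members were higher in knockouts and 2 lower (median log2 fold change 0.083), with 0 passing the limma test over all genes. C2, the protease that joins C4b in the C3 convertase of both arms, had 74.3, 57.5 and 66.3 FPKM in knockouts, all above the 53.6 and 46.3 FPKM of controls. Its log2 fold change was 0.39 (SE 0.14, 95% interval 0.06 to 0.72, limma adjusted p = 0.7), between 0.29 and 0.49 when 1 liver was left out. C2 (chromosome 17, 34862604 to 34898265, minus strand) ends 86 bases from Cfb on the same strand. A further annotated gene, Gm20547, overlaps both, and reads of the 2 genes may have been split between them.

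C4b, the mouse gene of complement C4, had 421, 475 and 351 FPKM in knockouts and 358 and 368 FPKM in controls, knockout 3 lying below both controls. Its near-identical copy C4a had 47.1, 95.6 and 72.9 FPKM in knockouts and 78.3 and 104 FPKM in controls, so the share of reads given to each is uncertain. Mbl2, 1 of the 2 mannose-binding lectins that start the lectin arm, had 256, 347 and 286 FPKM in knockouts, against 149 and 324 FPKM in controls. Control 1 stood alone below the other 4 livers. For Mbl2 the log2 fold change was 0.41 (SE 0.31, limma adjusted p = 0.783), 0.97 without control 2 and -0.14 without control 1, so the sign rested on control 1.

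Mbl1, the other lectin, had 110, 101 and 83.6 FPKM in knockouts and 107 and 105 FPKM in controls, and it was not low in control 1. Mbl2 over Mbl1 was 2.32, 3.43 and 3.42 in knockouts and 1.40 and 3.09 in controls. Of the lectin-associated proteases, Masp1 had 34.8, 40.1 and 43.3 FPKM in knockouts and 34.5 and 37.6 FPKM in controls. Masp2 had between 211 and 251 FPKM in all 5 livers. On the other strand Rtp4 (mean 18.7 FPKM) overlaps Masp1, and Tardbp (mean 56.5 FPKM) overlaps Masp2. The inhibitors of these arms overlapped between genotypes. C1 inhibitor (Serping1) lay between 542 and 595 FPKM, and C4-binding protein (C4bp) between 190 and 231 FPKM.

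C3 and the 2 tested genes of the alternative arm were all slightly lower in knockouts (median log2 fold change -0.086), with 0 passing the limma test. C3 had 1212, 1506 and 1289 FPKM in knockouts and 1479 and 1225 FPKM in controls, the highest and the lowest liver both being knockouts. Its log2 fold change was -0.017 (95% interval -0.34 to 0.31, limma adjusted p = 0.983), which bounds a change in either direction but does not show equality. Factor B (Cfb), the protease of the alternative C3 convertase, had 459, 438 and 462 FPKM in knockouts, all below the 478 and 483 FPKM of controls. Factor I (Cfi), which cuts C3b and C4b, had 345, 381 and 330 FPKM in knockouts and 364 and 397 FPKM in controls.

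Cfd, the protease that cuts factor B, was at the limit of the table. It had 0.17 FPKM in knockout 1, was listed at 0 in knockouts 2 and 3, and had 0.15 and 1.07 FPKM in controls. In a fit of 14401 genes with a mean of at least 0.1 FPKM its log2 fold change was -0.55 (SE 0.25, limma adjusted p = 0.773), with control 2 far above the other 4 livers. Of 8 fat cell genes, the defining markers Adipoq, Plin1, Lep and Retn were listed at 0 in all 5 livers. The other 4, Fabp4, Lipe, Adrb3 and Cidec, had values in every liver, and the 8 summed to 27.7, 40.7 and 36.8 FPKM in knockouts and 23.6 and 41.0 FPKM in controls. Fabp4, a fatty acid carrier also made by endothelium and macrophages, was highest in control 2, as Cfd was. It had 13.2, 24.5 and 19.4 FPKM in knockouts and 11.3 and 28.4 FPKM in controls. Lipe and Cidec were highest in knockout 3 and Adrb3 in knockout 2, and Lipe was lowest in control 2. The part of these genes in the Cfd values was not tested.

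Of the 4 genes of the fibrin clot, all were higher in knockouts (median log2 fold change 0.20), with 0 passing the limma test over all genes. Fga, the alpha chain of fibrinogen, had 2043, 2641 and 2137 FPKM in knockouts, all above the 1928 and 1801 FPKM of controls. Fgb, the beta chain, had 1075, 1316 and 1093 FPKM in knockouts and 1085 and 909 FPKM in controls, so control 1 lay between knockouts 1 and 3. Fgg, the gamma chain, had 1983, 2374 and 1940 FPKM in knockouts and 1986 and 1724 FPKM in controls, and control 1 lay just above knockouts 1 and 3. For each chain knockout 2 was highest and control 2 lowest.

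The log2 fold changes were 0.28 for Fga (SE 0.13, limma adjusted p = 0.718), 0.22 for Fgb (SE 0.13, limma adjusted p = 0.753) and 0.18 for Fgg (SE 0.13, limma adjusted p = 0.78). Without knockout 2 they were 0.17 for Fga, 0.13 for Fgb and 0.084 for Fgg, and without control 2 they were 0.23 for Fga, 0.092 for Fgb and 0.074 for Fgg. The ratio of Fgb to Fga stayed between 0.498 and 0.563 and that of Fgg to Fga between 0.899 and 1.03 over the 5 livers. F13b, the carrier chain of the transglutaminase that crosslinks fibrin, had 87.3, 83.1 and 88.0 FPKM in knockouts, all above the 82.9 and 83.0 FPKM of controls, by a log2 fold change of 0.053 that lay within its standard error of 0.088.

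The 3 fibrinogen genes are neighbours on chromosome 3 (83007724 to 83049863), Fgg and Fga on the plus strand and Fgb on the minus strand. Their upstream windows are shown because the 3 genes shared their highest and their lowest liver, with the same marks in capitals as above. They are chr3:83025903-83026152 (plus strand) for Fga, chr3:83049864-83050113 (minus strand) for Fgb and chr3:83007474-83007723 (plus strand) for Fgg, on GRCm38.p6, 5′ to 3′.
Fga: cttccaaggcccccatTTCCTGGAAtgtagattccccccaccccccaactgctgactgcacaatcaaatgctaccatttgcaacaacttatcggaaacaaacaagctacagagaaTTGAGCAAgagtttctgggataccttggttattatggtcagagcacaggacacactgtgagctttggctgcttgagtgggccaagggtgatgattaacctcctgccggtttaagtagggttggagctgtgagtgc
Fgb: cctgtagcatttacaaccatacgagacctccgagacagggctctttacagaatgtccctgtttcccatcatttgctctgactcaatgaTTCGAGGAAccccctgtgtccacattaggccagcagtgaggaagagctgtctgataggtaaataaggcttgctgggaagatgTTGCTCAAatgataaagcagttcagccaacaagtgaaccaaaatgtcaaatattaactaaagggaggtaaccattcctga
Fgg: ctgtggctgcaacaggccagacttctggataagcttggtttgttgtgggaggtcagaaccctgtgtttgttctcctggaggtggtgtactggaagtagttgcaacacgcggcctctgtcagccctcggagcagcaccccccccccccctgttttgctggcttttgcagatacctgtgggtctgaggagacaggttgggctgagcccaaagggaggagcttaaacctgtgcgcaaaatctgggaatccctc
Fga and Fgb each held 1 C/EBP match (-135 to -128 and -80 to -73) and 1 STAT match (-234 to -226 and -162 to -154), and no matches overlapped. Fgg held none of the 3 motifs in this window, and it shared its highest and lowest liver with the other chains.

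Acute phase genes other than fibrinogen were also high in knockout 2, but were not low in control 2. Levels of 15 acute phase genes, as a mean of log2(FPKM + 1) relative to the 5 livers, were -0.18, 0.39 and -0.33 in knockouts and -0.26 and 0.38 in controls. Knockout 2, the highest liver for all 3 chains, was the highest liver for 5 of these 15 genes. Control 2, the lowest liver for all 3 chains, was the highest liver for 7 of these 15 genes, among them Saa1 with 161, 214 and 105 FPKM in knockouts and 83.9 and 278 FPKM in controls. Of the 15, 5 were higher and 10 lower in knockouts (median log2 fold change -0.064), with 0 passing the limma test. The hemoglobin scavenger haptoglobin (Hp), also an acute phase protein, had 2805, 3200 and 2459 FPKM in knockouts, all below the 3227 and 4239 FPKM of controls (limma adjusted p = 0.7). Socs3, an inhibitor of this signalling, was above both controls in each knockout, with 4.68, 3.37 and 6.31 FPKM in knockouts and 2.76 and 2.16 FPKM in controls (limma adjusted p = 0.7).

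The 4 contact system genes were all higher in knockouts (median log2 fold change 0.075; 2 of 4 with median-of-ratios scaling), with 0 passing the limma test. F11, the protease that activates factor IX, had 64.9, 51.0 and 54.7 FPKM in knockouts and 58.1 and 35.6 FPKM in controls, with control 2 alone well below the other 4 livers. Its log2 fold change was 0.31 (SE 0.22, limma adjusted p = 0.776), 0.65 without control 1 and -0.038 without control 2. Plasma prekallikrein (Klkb1) lies 4.66 kb from F11 on chromosome 8, on the same strand, and is closely related to it. It had 57.8, 57.2 and 56.0 FPKM in knockouts, all above the 54.8 and 52.5 FPKM of controls, but by a log2 fold change of 0.086 (SE 0.088, limma adjusted p = 0.83). F12, which starts the contact pathway, lay between 257 and 295 FPKM and the kininogen Kng1, the source of bradykinin, between 986 and 1111 FPKM, with overlap in both. Kng1 has a near-identical copy, Kng2, with which it may share reads.

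The vitamin K-dependent proteases had log2 fold changes between -0.04 and 0.07 and 2 of 4 were higher, with 0 passing the limma test. Prothrombin (F2) had 1025, 1019 and 979 FPKM in knockouts and 1063 and 1016 FPKM in controls, a log2 fold change of -0.044 (95% interval -0.25 to 0.16, limma adjusted p = 0.911). F7, which starts clotting with tissue factor, lay between 61.9 and 72.6 FPKM. F9, which activates factor X, lay between 67.8 and 87.1 FPKM, highest in knockout 2, and F10, the source of the protease that makes thrombin and a neighbour of F7 on chromosome 8, between 253 and 279 FPKM. The genotypes overlapped for all 4.

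F8, the cofactor of factor IX, is made by sinusoidal endothelium, in which Lyve1 is active. It had 3.02, 2.88 and 2.81 FPKM in knockouts and 2.44 and 2.95 FPKM in controls, so control 2 lay inside the knockout range and control 1 below it. The log2 fold change of F8 was 0.082 (SE 0.13, 95% interval -0.23 to 0.39, limma adjusted p = 0.885), -0.018 without control 1 and 0.18 without control 2. The 13 markers of sinusoidal endothelium, all tested, were higher in knockouts in 6 cases and lower in 7 (median log2 fold change -0.029). They summed to 230, 167 and 181 FPKM in knockouts and 205 and 179 FPKM in controls. Reads of the overlapping gene Fundc2 on the other strand, at a mean of 2.23 FPKM, cannot be told apart from F8 unless strand was used in counting. F5, the cofactor of factor X made in hepatocytes, had 74.8, 92.2 and 82.3 FPKM in knockouts and 76.2 and 80.2 FPKM in controls.

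Among the anticoagulants 2 were higher and 2 lower (median log2 fold change -0.028), with 0 passing the limma test. Pros1, the cofactor of activated protein C, had 19.3, 24.6 and 19.5 FPKM in knockouts, all above the 18.8 and 18.1 FPKM of controls, with knockout 2 apart from the rest. The log2 fold change of Pros1 was 0.18 (SE 0.13, limma adjusted p = 0.781) and 0.073 without knockout 2. Heparin cofactor II (Serpind1), a thrombin inhibitor, had 323, 320 and 300 FPKM in knockouts, below the 323 and 352 FPKM of controls, although knockout 1 (322.94) and control 1 (323.47) were almost equal. For Serpind1 the log2 fold change was -0.10 (SE 0.092, limma adjusted p = 0.814), -0.042 without control 2 and -0.16 without control 1. Serpinc1 had 2568, 2427 and 2500 FPKM in knockouts and 2451 and 2526 FPKM in controls, a log2 fold change of 0.0053 (95% interval -0.21 to 0.22, limma adjusted p = 0.994). Protein C (Proc), which inactivates factors V and VIII, lay between 408 and 464 FPKM with overlap.

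For fibrinolysis, plasminogen (Plg), the precursor of the protease that dissolves fibrin, had 955, 978 and 915 FPKM in knockouts and 1028 and 916 FPKM in controls. For Plg the log2 fold change was -0.031 (95% interval -0.26 to 0.20, limma adjusted p = 0.948). Its inhibitor alpha2-antiplasmin (Serpinf2) had 556, 581 and 503 FPKM in knockouts and 539 and 503 FPKM in controls, overlapping as well.

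For the other genes of both cascades, 5 further lists held 17, 5, 11, 9 and 6 tested genes, and 0 passed the limma test over all genes. Only 1 of them, F2r, had an unadjusted limma p below 0.05. Of all genes, 5.29% were higher and 1.71% lower at that level. Of 17 other plasma complement genes tested 14 were higher in knockouts (10 with median-of-ratios scaling). Of the 17, 8 were lowest in control 1, against 28.1% of all tested genes. Among them C1qa, a chain of the C1q recognition molecule that macrophages make, had 66.6, 75.5 and 65.3 FPKM in knockouts and 42.7 and 65.3 FPKM in controls (log2 fold change 0.38, SE 0.18, limma adjusted p = 0.718). C1qb had 59.9, 77.8 and 65.4 FPKM in knockouts and 41.5 and 68.9 FPKM in controls. Both overlapped between genotypes, and control 1 was lowest.

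The Kupffer cell and macrophage list, which contains the 3 C1q genes, was lowest in control 1 for 7 of its 10 members, against 28.1% of all tested genes. All 10 were higher in knockouts (median log2 fold change 0.23), and 9 were with median-of-ratios scaling. The genotypes overlapped for all 10, and 0 passed the limma test. This list summed to 375, 480 and 449 FPKM in knockouts and 273 and 460 FPKM in controls. Its part in the C1q values was not tested. Susd4, a complement inhibitor of the cell surface, had 11.35, 15.05 and 10.96 FPKM in knockouts, above the 10.29 and 9.14 FPKM of controls (limma adjusted p = 0.72). C5, named Hc in mice, had 266, 296 and 234 FPKM in knockouts and 248 and 274 FPKM in controls.

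Complement receptors and membrane regulators were mostly too low to test, with 5 of 12 passing the filter and 3 of the 5 higher. The membrane attack inhibitor Cd59b had 12.78, 12.38 and 11.41 FPKM in knockouts, below the 13.62 and 13.03 FPKM of controls. Its paralog Cd59a averaged 35.6 ± 3.82 FPKM in knockouts and 41.5 ± 6.22 FPKM in controls, and Cd55, which dissolves C3 convertases, 7.23 ± 1.26 FPKM in knockouts and 5.65 ± 1.04 FPKM in controls (SD, n = 3 and 2).

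Among 11 other plasma factors of hemostasis 6 were higher and 5 lower (2 and 9 with median-of-ratios scaling). The phospholipid-binding protein Apoh had 1813, 1965 and 1724 FPKM in knockouts, all below the 2102 and 2143 FPKM of controls (log2 fold change -0.21, SE 0.10, limma adjusted p = 0.716). Serpina10, the inhibitor of factor Xa that acts with protein Z, had 128.57, 108.19 and 119.24 FPKM in knockouts, above the 107.02 and 96.24 FPKM of controls (limma adjusted p = 0.722). Adamts13, which cuts von Willebrand factor, averaged 1.67 ± 0.185 FPKM in knockouts and 1.98 ± 0.0566 FPKM in controls, without overlap (SD, n = 3 and 2).

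Endothelial and cellular genes of hemostasis were higher in knockouts for 8 of 9 tested (median log2 fold change 0.19). The thrombin receptor F2r had 17.4, 16.3 and 19.1 FPKM in knockouts, above the 12.8 and 15.3 FPKM of controls (log2 fold change 0.31, SE 0.13, limma adjusted p = 0.7). Vwf, the platelet adhesion protein of endothelium, had 5.17, 2.99 and 2.56 FPKM in knockouts, above the 2.27 and 2.23 FPKM of controls (log2 fold change 0.45, SE 0.24, limma adjusted p = 0.73), with knockout 1 furthest. F3, tissue factor, had 2.91, 2.83 and 3.49 FPKM in knockouts, above the 2.65 and 2.58 FPKM of controls. Tfpi2 averaged 41.0 ± 3.40 FPKM in knockouts and 30.6 ± 14.0 FPKM in controls, control 1 being low at 20.8 FPKM.

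In the list for the vitamin K cycle and secretion 5 of 6 were higher (3 of 6 with median-of-ratios scaling), the exception being Vkorc1, the target of warfarin. Vkorc1 had 256, 226 and 238 FPKM in knockouts, below the 270 and 264 FPKM of controls (limma adjusted p = 0.758). Furin and Mcfd2 overlapped between genotypes.

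C2, C6, C8b, F11 and Klkb1 were each highest in knockout 1 and lowest in control 2. Of 15 male-biased liver genes, none of them a member, 7 shared both extremes. The list had mean levels of 0.57, -0.021 and 0.23 in knockouts and -0.13 and -0.66 in controls, on the log2 scale relative to the 5 livers. Knockout 1 was the highest liver for 9 of the 15 and control 2 the lowest for 11, against 23.3% and 23.0% of all tested genes. The share of all genes with both extremes was not computed. Of the 15, 14 were higher in knockouts (median 0.38), with 0 passing the limma test, while 64.2% of all genes were higher. With median-of-ratios scaling 11 of the 15 were higher, and with quantile normalization 12 were. Among the 15, Ugt2b1 averaged 202 ± 21.5 FPKM in knockouts and 155 ± 7.57 FPKM in controls (SD, n = 3 and 2). All livers were labelled as male, and the part of this list in the values of C2, C6, C8b, F11 and Klkb1 was not tested.

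Of 14 liver transcription factors 11 were higher and 3 lower in knockouts (10 and 4 with median-of-ratios scaling), with 0 passing the limma test. Of all genes 64.2% were higher. Foxa2, a pioneer factor of liver genes, had 14.1, 22.1 and 25.1 FPKM in knockouts, above the 11.2 and 12.5 FPKM of controls (log2 fold change 0.71, SE 0.23, limma adjusted p = 0.7). Its relative Foxa3 had 38.2, 39.7 and 35.2 FPKM in knockouts, above the 31.8 and 23.0 FPKM of controls (limma adjusted p = 0.7). Nr1i3, the xenobiotic receptor CAR, had 113, 120 and 81.2 FPKM in knockouts, below the 152 and 154 FPKM of controls (log2 fold change -0.56, SE 0.17, limma adjusted p = 0.7). Hnf4a, a main activator of clotting factor genes, had 159, 156 and 123 FPKM in knockouts and 156 and 127 FPKM in controls, with overlap.

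**Figure D4:**
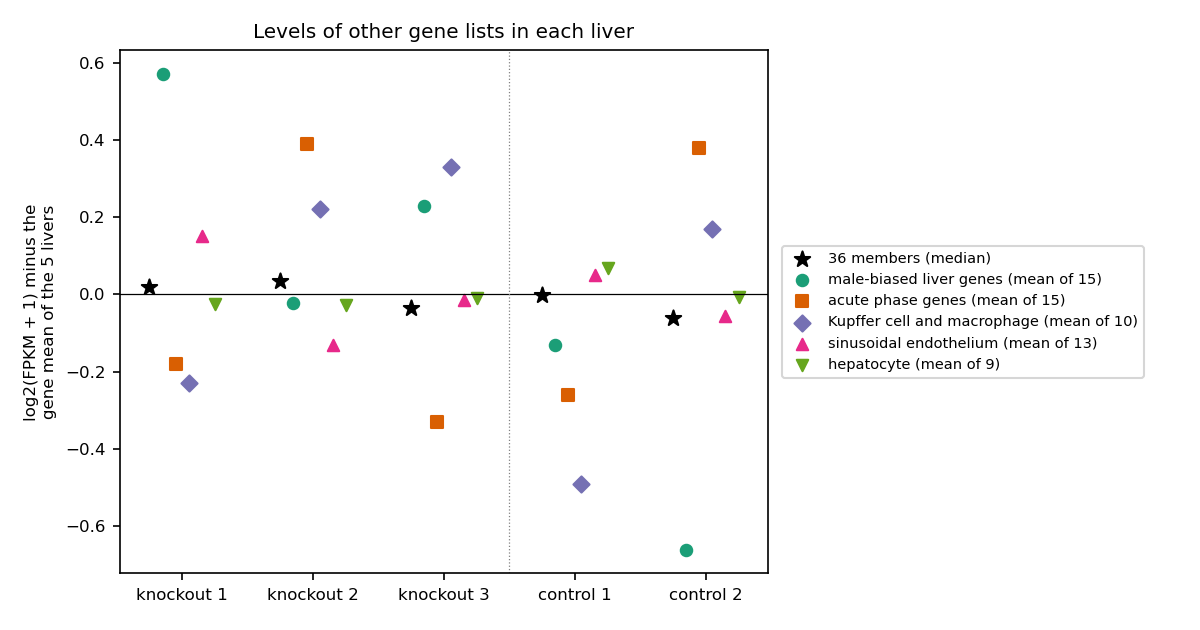
Level of each gene list in each liver, as the mean (for the 36 members the median) of log2(FPKM + 1) minus the gene's mean over the 5 livers, knockouts left and controls right of the dotted line. The median of the members stays between -0.062 and 0.034 in every liver, and it hides members that vary more, such as C6 and C8b. The mean of the male-biased genes runs between -0.66 in control 2 and 0.57 in knockout 1. That of the acute phase genes runs between -0.33 and 0.39, and that of the Kupffer cell genes between -0.49 and 0.33. A median and a mean are unlike measures, so these ranges cannot be compared directly with that of the members.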

How the data were processed

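RNA-seq of 5 mouse livers was analysed, grouped by genotype label. The deposited values are FPKM with up to 2 decimals, 1 row per gene. The submitters' processing notes list HISAT2, StringTie, DESeq2 and mm10 as what the authors used, without versions or roles. The annotation and strand setting are not stated there. A second deposited FPKM table held the same values in all 33589 rows. FPKM are not counts, and depth is unknown: among short genes with 1 exon (150 to 900 nt) and at least 0.1 FPKM, the best step made at most 34.6% of a library's values whole to within 0.1. No count test or counting interval was therefore possible.

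Values were tested as log2(FPKM + 1) with limma 3.58.1 (R 4.3.3) and a variance trend, two-sided, with genotype as the only term. The 10820 genes with a mean of at least 1 FPKM entered, with Benjamini-Hochberg adjustment over all of them and a threshold of 0.05. This scale understates changes of low genes. Cfd and Heg1 came from a fit with a filter of 0.1 FPKM. The fit was checked on simulated data. No label states that each library is its own animal, so the spread measured may be technical.

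The members and lists were chosen with earlier results of these data known. Fold changes were given for members with an unadjusted p below 0.05, for the 8 members without overlap that had the largest changes, and for 9 preset members. C8b and Mbl2 were added after their values were seen, as were the fold changes of Fgg and F13b. In the pathway and regulator lists, the 3 genes with the smallest p were eligible, and others named there (Hc, F3, Saa1, Hnf4a) were added after their values were seen. Alternatives covered pseudocounts, filters, scalings, variance models, a replicate block and leaving out each liver. Positions came from GENCODE M21 (mm10), which held all 37 members, and upstream windows from RefSeq (GRCm38.p6). 1 further gene is not reported here.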

Additional observations from a re-analysis of the deposited data

How the results depend on the processing

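No member passed the adjusted threshold under any of the 16 alternatives run. Of 272 values of 18 of the 20 members given a fold change, 258 kept their direction and 14 changed sign, all with limma adjusted p of 0.896 or more. Apart from leaving out a liver, these were Serpinc1 (-0.074 with median-of-ratios scaling, -0.00011 with quantile normalization, -0.0054 with totals that omit the 10 most abundant genes, an alternative chosen after seeing the data), F8 (-0.0093 with quantile normalization) and C3 (0.0054 with the replicate block). Of the other 2, Fgg kept its direction under all 16, and F13b under all but median-of-ratios scaling (-0.025). Leaving out 1 liver gave ranges of -0.15 to 0.12 for C3, -0.016 to 0.027 for Serpinc1, -0.018 to 0.18 for F8, -0.11 to 0.052 for Plg, -0.038 to 0.65 for F11 and -0.14 to 0.97 for Mbl2. F2 (-0.077 to -0.012), Klkb1 (0.057 to 0.12), Fgb (0.092 to 0.35) and Fgg (0.074 to 0.28) kept their sign, each lowest in value without control 2 and highest without control 1. The median of the members was -0.012 with median-of-ratios scaling and between 0.024 and 0.077 without 1 liver, lowest without knockout 2. Members without overlap numbered between 12 and 19 with 1 liver left out, against 10, since fewer livers overlap less. As shares, members against all genes, these were 47.2% against 40.5% without knockout 1, 36.1% against 37.9% without knockout 2, 33.3% against 37.2% without knockout 3, 52.8% against 52.1% without control 1 and 52.8% against 52.8% without control 2. Over all genes, between 0 and 1 passed without 1 liver, and 5 with the replicate block, against 0. Under that block 6 members (16.7%) were higher and 0 lower at an unadjusted p below 0.05, against 6.1% of all genes higher and 2.83% lower. The labels do not say what a shared number means, and deviations of same-numbered livers correlated at 0.227 and 0.196 over only 2 pairs, so the numbers were not taken as pairs. The counts of role groups and lists under other scalings were added after seeing the data. With 2 controls and unknown depth, differences larger than their standard error also went uncalled, such as C6 at 0.69 (SE 0.20, limma adjusted p = 0.7). The standard errors of the members, 0.085 to 0.31 on the log2 scale, are therefore no limit of detection.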
